A study of Mus musculus with 6 samples.

Results

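The baseline transcript profile of sorted mouse mammary luminal cells was read from the 3 wild-type samples of a series of 6 samples; the other 3 samples are tumors and are not described. The 3 wild-type samples came from mice numbered 1, 2 and 4 in the labels, with 1 array per mouse. The mice were females with a wildtype genotype that carried the Rosa26-Stop-YFP reporter, in which a yellow fluorescent protein is made only after Cre recombinase has cut out a stop signal. They had received Ad-K8-Cre, an adenovirus that drives Cre from a keratin 8 promoter, into the mammary ducts, and YFP+ cells were sorted 10 to 14 days later. All 3 mice thus carried the reporter, the virus and its Cre, and no mouse without virus was analysed here. The labels used here give neither the age nor the background strain of the mice. The cells are those in which the keratin 8 promoter of the virus had acted, so the sort does not sample all luminal cells alike. Total RNA was amplified with a NuGEN Ovation system, labelled with biotin and measured on expression arrays.

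The mammary duct is a bilayer. Its inner, luminal cells carry the simple keratins 8 and 18 and the adhesion protein Epcam, while its outer, basal cells are contractile and carry keratins 5 and 14. Luminal cells are commonly divided into hormone-sensing cells, which hold the oestrogen and progesterone receptors, and alveolar-type progenitors, which hold the receptor tyrosine kinase Kit and the transcription factor Elf5 and give rise to milk-secreting cells. Hormone-sensing cells pass hormone signals to their neighbours through secreted factors such as Wnt4 and Tnfsf11.

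A level is the deposited log2 value, in which 1 unit is a doubling of signal. Of 41345 probe sets, 23521 named 1 gene, and each of 22180 genes was read from its brightest such probe set. Values given in threes are in the order of mice 1, 2 and 4. Because each probe set binds with its own strength, the order of genes below is an order of probe-set signals and not of transcript abundance per length. Actb, the cytoplasmic actin of nearly all cells, illustrates this with levels of 4.60, 4.54 and 4.98. As a mark for background, each array's 95th percentile over 1088 genes for olfactory receptors was taken, at 3.75, 3.85 and 3.69. A total of 10181 genes, or 45.9%, lay above the mark on all 3 arrays, 1518 on 2, 1380 on 1 and 9101 on none. The median gene was at 3.93, 3.86 and 3.91. Only 902 genes had a mean of at least 8, and 155 a mean of at least 10. With the 99th percentile as the mark, 6325 genes lay above it on all 3 arrays. Counts of list members above either mark below are to be read against these numbers, 10181 and 6325 of 22180 genes.

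**Figure D1:**
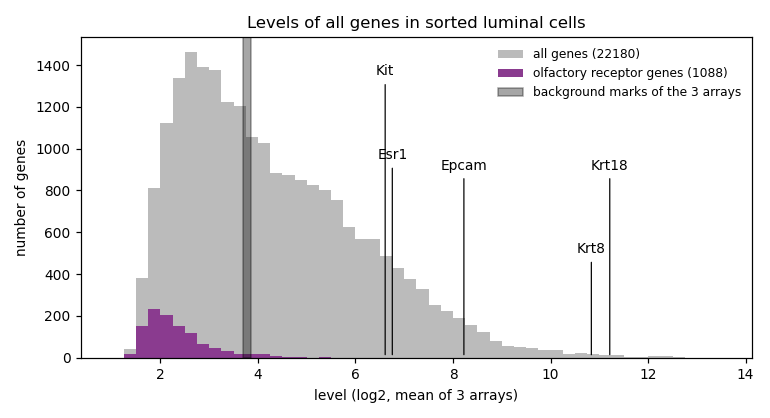
Number of genes (vertical axis) by level (horizontal axis, log2, mean of 3 arrays) for all 22180 genes in grey and 1088 olfactory receptor genes in purple; the grey band spans the background marks of the 3 arrays (3.69 to 3.85) and lines mark 5 luminal genes. Krt8 and Krt18 lie in the sparse upper end, and Epcam, Esr1 and Kit lie between them and the bulk of genes.

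The array of mouse 2 stood apart from the other arrays. Across genes, the levels of mice 1 and 4 correlated with a Pearson r of 0.966 and differed by a median of 0.26, whereas mouse 2 correlated with mouse 1 at 0.939 and with mouse 4 at 0.939, with median differences of 0.33 and 0.33. Genes are not independent replicates, and these values are descriptions. Of the 13079 genes above the mark in at least 1 mouse, 8.60% differed by more than 1 between mice 1 and 4. The share was 16.8% between mice 1 and 2 and 18.3% between mice 2 and 4. Without mouse 2, 11149 genes lay above the mark on both remaining arrays. Among the 13079 genes above the mark in at least 1 mouse, mouse 1 was highest in 29.4% and lowest in 31.3%, mouse 2 highest in 32.5% and lowest in 42.2%, and mouse 4 highest in 37.7% and lowest in 25.9%; counts of highest and lowest members below are to be read against these shares. Every level below is given for each mouse, so that it can be read with and without mouse 2. The labels say that the samples came from different mice, and no statistical test was made on them. Scan dates and detection calls were not used here, so a batch of arrays was not tested.

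The genes that define luminal cells were among the bright genes, and the keratin pair led them. Krt18, the acidic partner of the simple keratin pair, was at 10.58, 11.49 and 11.57, with a mean of 11.21 ± 0.55 (SD, n = 3). Krt8, its basic partner and the gene whose promoter drove Cre, was at 10.31, 11.08 and 11.12, with a mean of 10.84 ± 0.46 (SD, n = 3). Both were lowest in mouse 1 and nearly level in mice 2 and 4. The lead of Krt18 rests on its brighter probe set, since its other one was at a mean of 5.54 and their average of 8.38 lies below Krt8. Epcam, an epithelial adhesion protein, was at 8.05, 8.31 and 8.31, a narrow range below that of both keratins. Esr1, the oestrogen receptor, was at 6.50, 6.62 and 7.14. Kit was at 7.24, 6.71 and 5.88, so Esr1 was highest and Kit lowest in mouse 4. The ranges of Esr1 and Kit overlapped each other and lay below that of Epcam. All 5 genes lay above the mark on every array, also with the 99th percentile as the mark. The first mark was passed by 45.9% of all genes, and the 5 were named beforehand as luminal markers. Passing it thus shows that they were detected and does not set luminal cells apart from others. Krt14, Acta2, Dcn and Fabp4, genes of other cell types taken up below, had means of 8.90, 7.58, 10.69 and 10.06, above those of Esr1 and Kit. In a bulk sample, a difference in the share of cells that hold a transcript and a difference in its amount per cell cannot be told apart.

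The sequences just upstream of Krt8 and Krt18 are shown because the first names the promoter class that marked the cells and both genes were among the brightest luminal signals. These are the 200 bases before each RefSeq start site of the mouse genes (assembly GRCm38.p6), 5′ to 3′ on the gene's strand; the sequence carried by the virus was not analysed here. Capitals mark a match to the AP-2 motif GCCNNNGGC, searched on both strands.
Krt8, chr15:102004343-102004542, minus strand: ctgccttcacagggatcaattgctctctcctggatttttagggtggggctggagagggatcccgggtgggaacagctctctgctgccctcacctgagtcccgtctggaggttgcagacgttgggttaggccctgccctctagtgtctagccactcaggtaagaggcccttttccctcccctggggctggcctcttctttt
Krt18, chr15:102028016-102028215, plus strand: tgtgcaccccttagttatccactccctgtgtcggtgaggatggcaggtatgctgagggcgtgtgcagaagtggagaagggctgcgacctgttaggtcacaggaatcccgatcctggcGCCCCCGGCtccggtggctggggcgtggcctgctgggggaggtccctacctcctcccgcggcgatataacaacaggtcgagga
The Krt18 stretch held 1 match, which begins 83 bases before the start site. Among 32851 promoters, 11.8% held this motif in the same window. No match to the TATA box letters TATAAA was present in either stretch, and 9.96% of the promoters held one. A match is a description of letters and not of a bound site.

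Simple epithelial character extended through the adhesion machinery. All 4 simple keratins were above the mark on every array, and Krt19, the keratin without a tail domain, followed at 8.0, 9.08 and 8.78. Krt7 lay lowest of the 4, at 6.65, 6.60 and 6.80. Of 23 measured genes for epithelial adhesion and junctions, 23 lay above the mark on every array, with list medians of 7.80, 7.70 and 8.16. Cldn4, a tight junction claudin, led them at 10.04, 10.93 and 11.55. Cd24a, a glycoprotein used to sort luminal cells, was at 10.54, 9.95 and 11.15. Cdh1, the epithelial cadherin, was at 9.57, 10.42 and 10.62. The ranges of these 3 genes overlapped, with Cldn4 and Cdh1 lowest in mouse 1 and Cd24a in mouse 2. St14, the membrane protease matriptase, was at 9.32, 9.44 and 9.80, and Spint1, its inhibitor, at 9.05, 9.28 and 9.96. Grhl2, a factor that maintains epithelial junctions, was among the dimmest at 5.78, 5.93 and 6.06. In 12 of these 23 genes the highest value was in mouse 4 and in 15 the lowest was in mouse 1, against 37.7% and 31.3% of all genes.

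Of 16 transcription factors of the luminal lineages, 15 lay above the mark on every array, with list medians of 6.37, 6.20 and 6.54. The highest signals were those of Xbp1, a factor of secretory cells, at 8.34, 9.10 and 8.91, and of Nfib, at 9.22, 8.28 and 8.58. Their ranges overlapped, and mouse 1 was lowest for the former and highest for the latter. Foxa1, which opens chromatin for the oestrogen receptor, was at 7.40, 7.44 and 8.03. Runx1 was at 7.20, 7.82 and 6.81, and Stat6 at 7.34, 7.53 and 6.95, both lowest in mouse 4, whereas Foxa1 was highest there. Gata3, the factor that maintains the luminal fate, was at 6.59, 6.65 and 7.07. It was the only one of 6 GATA factors above the mark on every array, and the next, Gata2, was at 3.35, 3.43 and 3.62, below the mark on each. Elf5, the alveolar factor, was the exception among luminal factors. Its levels of 3.70, 3.52 and 3.40 were below the mark in all 3 mice, which leaves its level untold from background rather than absent.

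Hormone-sensing and progenitor genes were both present, and they were ordered differently in the 3 mice. Of 13 measured hormone-sensing genes, 11 lay above the mark on every array, with list medians of 5.47, 6.10 and 6.04. Fxyd2, a subunit that modulates the sodium pump, was at 7.37, 7.46 and 6.89. Cited1, a coregulator of the oestrogen receptor, was at 6.85, 7.34 and 7.15. Prom1, a membrane protein that marks these cells, was at 6.90, 6.68 and 7.62. Their order changed from mouse to mouse, and each overlapped Esr1. Of the 11 genes, 8 were lowest in mouse 1, against 31.3% of all genes. Pgr, the progesterone receptor, was at 4.67, 5.16 and 5.66, the dimmer of the oestrogen and progesterone receptor signals in every mouse. Wnt4, a signal that acts downstream of progesterone, was at 5.47, 7.12 and 6.04, and mouse 2 lay more than 1 unit above both other mice. Tnfsf11, the other progesterone-driven signal, was at 2.47, 2.94 and 2.70, below the mark in all mice, as was Greb1, an oestrogen target, at 2.56, 3.02 and 2.49. Prlr, Ly6a and Areg were not analysed here.

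Of 12 luminal progenitor genes, 11 lay above the mark on every array, and the list medians of 7.22, 6.62 and 6.32 ran from mouse 1 down to mouse 4. Ltf, the iron-binding milk protein lactoferrin, was at 9.28, 8.98 and 8.58. Mfge8, a protein of the milk fat globule membrane, was at 8.60, 8.74 and 8.21. Cd14, a receptor for bacterial products, was at 8.50, 9.42 and 7.58, a wider range than those of Ltf and Mfge8. Itga2, an integrin used to sort luminal progenitors, was at 8.35, 8.61 and 8.09. These 4 genes and Kit were lowest in mouse 4, as were 8 of the 11 in all, against 25.9% of all genes. Sox9, a factor linked to progenitor state, ran the other way at 7.21, 7.73 and 8.32. Aldh1a3, the aldehyde dehydrogenase used to mark these progenitors and chosen here after its values were seen, was at 6.78, 5.94 and 6.77. Itgb3 and Hey1 were dim, at 4.71, 4.66 and 4.56 and at 4.33, 4.37 and 5.02.

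**Figure D2:**
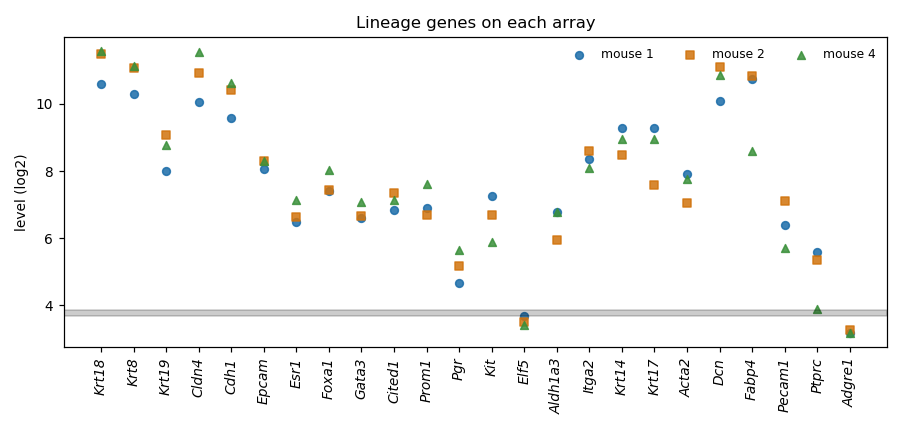
Level (vertical axis, log2) of 24 lineage genes in mouse 1 (circles), mouse 2 (squares) and mouse 4 (triangles), with the background marks as a grey band; genes chosen for their lineage role. The simple keratins, Cldn4 and Cdh1 are lowest in mouse 1, Kit runs from 7.24 to 5.88, and Elf5 and Adgre1 lie below the marks.

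Milk genes were transcribed in these samples, and of the luminal lists this one had medians that lay farthest apart between the mice. Of 12 genes for milk protein and milk fat, 9 lay above the mark on every array, with list medians of 6.07, 7.32 and 5.03. Lalba, the lactose synthase subunit, was at 8.21, 8.34 and 7.45. Csn3, the casein that stabilises the micelle, was at 8.64, 8.62 and 6.49. Csn2, the beta casein, was at 7.65, 8.71 and 6.65. All 3 were lowest in mouse 4. Csn1s1, an alpha casein, was at 7.33, 8.32 and 4.66, so mouse 4 was 2.67 below the nearer of the other mice. Csn1s2a, another alpha casein, was at 6.05, 8.93 and 6.0, high in mouse 2 alone. Glycam1, a secreted mucin of milk, was at 5.91, 4.82 and 3.79. The alpha caseins thus set mouse 2 or mouse 4 apart, and Glycam1 spread over all mice. Of the 10 members above the mark in at least 1 mouse, 9 were lowest in mouse 4, and 4 of these by at least 1 unit; over all 13079 genes, 25.9% were lowest in mouse 4 and 1.09% by at least 1 unit. Wap, the whey acidic protein, stayed at 3.32, 3.88 and 3.36, and Csn1s2b at 2.27, 1.62 and 2.02. The samples were collected without a pregnancy or lactation stage in the labels.

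The secretory defence and acute phase genes were also bright and differed among mice in both directions. Of 18 measured genes, 14 lay above the mark on every array, with list medians of 7.32, 7.66 and 6.61. Fgg, the fibrinogen gamma chain, had the highest signal of the list at 9.84, 9.76 and 11.52. Fgb, the beta chain, was at 7.52, 6.83 and 10.13, whereas Fga, the alpha chain of the same protein, was at 2.15, 2.23 and 2.07, below the mark in every mouse. Alb and Ttr, the liver's abundant secreted proteins, were at 3.16, 3.06 and 2.58 and at 3.09, 3.06 and 2.91, below the mark as well. Cxcl15, a chemokine of secretory epithelia, was at 7.96, 8.46 and 10.00. In mouse 4, Fgg, Fgb and Cxcl15 were each at least 1 unit above both other mice, as were 5 of the 16 members above the mark in at least 1 mouse, against 2.33% of all genes. The other members of the 5 included Reg3g, an antibacterial lectin chosen here after its values were seen, at 6.57, 6.05 and 8.58. Its neighbour in function Reg3b was at 5.44, 3.65 and 8.15.

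Other defence genes were lowest in mouse 4. Lcn2, which binds bacterial siderophores, was at 8.86, 9.64 and 7.71. Slpi, a protease inhibitor of mucosal secretions, was at 7.41, 7.72 and 5.75, and Lbp, which binds bacterial lipopolysaccharide, at 7.22, 7.89 and 5.33; both were chosen after their values were seen. Of the 16 members above the mark in at least 1 mouse, 4 were lowest in mouse 4 by at least 1 unit. Over all 13079 genes above the mark in at least 1 mouse, the share was 1.09%. Saa2, an acute phase apolipoprotein, was at 5.30, 8.71 and 4.73, high in mouse 2 alone, where 3.29% of all genes lay at least 1 unit above both other mice. Hp, the haemoglobin-binding haptoglobin, followed neither pattern, at 7.43, 8.58 and 9.09.

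The upstream sequences of 4 of these genes are shown because Csn1s1 and Csn2 were lowest and Fgg and Fgb highest in mouse 4. They are again the 200 bases before the RefSeq start site in GRCm38.p6, 5′ to 3′. Capitals mark matches to TTCNNNGAA, the letters of the GAS element that STAT factors recognise, and to TGANTCA. The latter is a loose form of the AP-1 element, with any base allowed at its centre. Both strands were searched, and no matches overlapped.
Csn1s1, chr5:87666008-87666207, plus strand: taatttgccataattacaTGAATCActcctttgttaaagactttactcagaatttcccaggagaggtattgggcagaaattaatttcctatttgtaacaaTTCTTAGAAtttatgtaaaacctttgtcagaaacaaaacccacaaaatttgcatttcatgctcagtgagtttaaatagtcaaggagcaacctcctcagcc
Csn2, chr5:87699426-87699625, minus strand: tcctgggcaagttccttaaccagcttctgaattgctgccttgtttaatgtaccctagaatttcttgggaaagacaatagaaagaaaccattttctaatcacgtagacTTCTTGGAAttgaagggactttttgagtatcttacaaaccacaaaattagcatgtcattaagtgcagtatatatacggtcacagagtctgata
Fgg, chr3:83007524-83007723, plus strand: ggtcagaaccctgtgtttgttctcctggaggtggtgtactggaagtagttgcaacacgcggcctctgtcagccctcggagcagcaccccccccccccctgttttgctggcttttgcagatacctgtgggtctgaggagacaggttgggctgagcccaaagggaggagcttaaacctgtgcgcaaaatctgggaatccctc
Fgb, chr3:83049864-83050063, minus strand: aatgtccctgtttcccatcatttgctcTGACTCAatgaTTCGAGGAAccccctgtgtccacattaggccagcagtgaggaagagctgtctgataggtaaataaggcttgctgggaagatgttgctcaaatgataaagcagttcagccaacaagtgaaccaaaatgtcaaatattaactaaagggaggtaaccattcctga
The GAS letters began 100 bases before the start site of Csn1s1, 93 bases before that of Csn2 and 162 bases before that of Fgb. The loose AP-1 letters began 182 bases before the start site of Csn1s1, as TGAATCA, and 173 bases before that of Fgb, as TGACTCA. The Fgg stretch held neither. Among the 32851 promoters, 5.49% held the GAS letters and 5.48% the AP-1 letters in this window. Stat5a and Stat5b, the factors through which prolactin acts on casein genes, were at 5.85, 6.31 and 6.36 and at 6.42, 5.94 and 5.69, so the first was lowest in mouse 1 and the second in mouse 4. Stat3, which acts in the acute phase response, had the highest signal of 6 STAT factors at 9.63, 9.79 and 9.52, and its range lay above that of Stat6, the next.

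**Figure D3:**
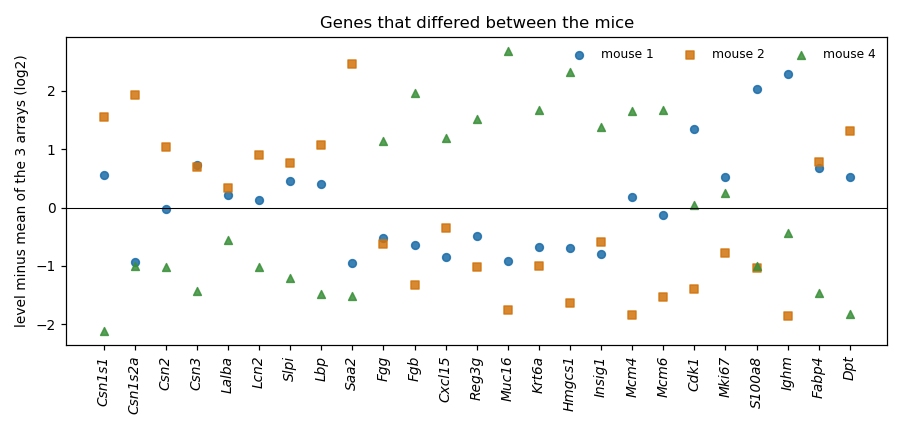
Level minus the mean of the 3 arrays (vertical axis, log2) for 25 genes in mouse 1 (circles), mouse 2 (squares) and mouse 4 (triangles); the genes were chosen after their values were seen. The caseins lie lowest and Fgg, Fgb, Cxcl15 and Reg3g highest in mouse 4, while Saa2 and Csn1s2a lie highest in mouse 2.

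Basal transcripts were detected beside the luminal ones. Of 21 measured basal and myoepithelial genes, 16, or 76.2%, lay above the mark on every array, against 45.9% of all genes. The list medians were 5.89, 5.69 and 6.59. Krt14, the basal keratin, was at 9.27, 8.48 and 8.95, below Krt8 and Krt18 in every mouse. Krt17, a keratin of basal and activated epithelium, was at 9.29, 7.59 and 8.96. Both keratins, like most of the list, were lowest in mouse 2. Acta2, the smooth muscle actin of myoepithelial cells, was at 7.92, 7.04 and 7.77, and Tagln, an actin-binding protein of contractile cells, at 7.89, 7.74 and 7.04. Trp63, the factor that defines basal cells, was near the mark at 3.93, 3.41 and 4.14, and Oxtr, the oxytocin receptor of myoepithelium, was below it at 3.52, 3.62 and 3.02. Of the 20 members above the mark in at least 1 mouse, 14 were lowest in mouse 2, 3 of them by at least 1 unit, against 42.2% and 5.98% of all genes. Luminal cells can express some of these genes, Itga6 and Krt14 among them. Krt5 was not analysed here because no probe set named it alone.

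Defining genes of other cell types were mostly dim, with a few bright exceptions. Over 105 marker genes of 13 other cell types, 45 lay above the mark on every array, with medians of 4.23, 3.99 and 3.81. The share was thus near that of all genes, whereas 61 of the 64 luminal and epithelial genes lay above it, with medians of 7.09, 7.33 and 7.15. The fibroblast list had 9 of 13 genes, or 69.2%, above the mark on every array, against 45.9% of all genes. With the 99th percentile mark, the list had 5. Dcn, the matrix proteoglycan decorin, was at 10.10, 11.11 and 10.87, close to Krt8. Postn, a matrix protein of activated stroma, was at 8.22, 6.12 and 7.53. Dpt, the matrix protein dermatopontin, was at 7.35, 8.14 and 5.0. The bright matrix genes did not move together, since Postn was lowest in mouse 2, where Dcn and Dpt were highest. Col1a1, the main fibrillar collagen chain, was at 6.13, 6.42 and 4.86, and the receptor Pdgfra was near the mark at 4.40, 3.53 and 4.42.

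Endothelial genes had 9 of 12, or 75.0%, above the mark on every array, against 45.9% of all genes, and 4 with the stricter mark. Cdh5, the endothelial cadherin, was at 7.22, 7.34 and 5.54, and Pecam1, an adhesion protein of vessels, at 6.39, 7.10 and 5.70; both were lowest in mouse 4. Fabp4, a lipid carrier of adipocytes and capillary endothelium, was at 10.75, 10.84 and 8.61. It was about as bright as Krt8 in mice 1 and 2 and lower in mouse 4. Over the endothelial list, 7 of the 10 genes above the mark in at least 1 mouse were highest in mouse 2, against 32.5% of all genes. Of the same 10, 4 were lowest in mouse 4 and 4 in mouse 1, against 25.9% and 31.3% of all genes. Adipoq and Lep, the defining hormones of adipocytes, were at 2.67, 3.10 and 2.63 and at 2.88, 3.22 and 3.06, below the mark in all mice, and 2 of 9 adipocyte genes lay above it on every array. The pericyte list had 3 of 7 above the mark on every array, and 5 when mouse 2 was left out.

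Most macrophage genes were highest in mouse 1. Of 13 macrophage genes, 6, or 46.2%, lay above the mark on every array, near the 45.9% of all genes, and 1 with the stricter mark. Cd68, a lysosomal protein, was at 6.75, 6.66 and 5.64, and Lyz2, lysozyme, at 6.40, 5.82 and 4.62. Both were lowest in mouse 4. Adgre1 and Mrc1, which define tissue macrophages, were below the mark in all mice, at 3.18, 3.26 and 3.19 and at 3.03, 3.46 and 3.01. Ptprc, the common leukocyte antigen, was at 5.59, 5.36 and 3.89. Ptprc was likewise lowest in mouse 4, close to the mark. Ighm, the heavy chain of immunoglobulin M, was at 8.89, 4.74 and 6.16, but the B cell genes Cd79a and Ms4a1 lay below the mark at 3.11, 2.87 and 3.07 and at 2.37, 2.20 and 2.31. S100a8, a neutrophil and epithelial calcium-binding protein, was at 7.41, 4.37 and 4.40. Of 8 macrophage genes above the mark in at least 1 mouse, 7 were highest in mouse 1 and 6 lowest in mouse 4, against 29.4% and 25.9% of all genes.

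Among the remaining lists, 4 of 6 pan-leukocyte, 2 of 7 T cell, 1 of 6 B cell and 1 of 8 neutrophil genes lay above the mark on every array; without mouse 4 the neutrophil count was 3. So did 0 of 2 erythroid, 5 of 10 skeletal muscle, 1 of 8 keratinocyte and 2 of 4 Schwann and neural genes. For tissues with no place in the gland, the counts were 2 of 9 liver, 1 of 7 testis and 1 of 6 retina genes, and 2 retina genes without mouse 2; the testis gene, Odf1, is taken up among the highest signals below. Over all 71 markers of other cell types above the mark in at least 1 mouse, 34 were lowest in mouse 4, 9 of them by at least 1 unit, against 25.9% and 1.09% of all genes. The caseins and Lcn2, Slpi and Lbp were lowest in the same mouse, and the part of other cells in those levels was not tested.

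**Figure D4:**
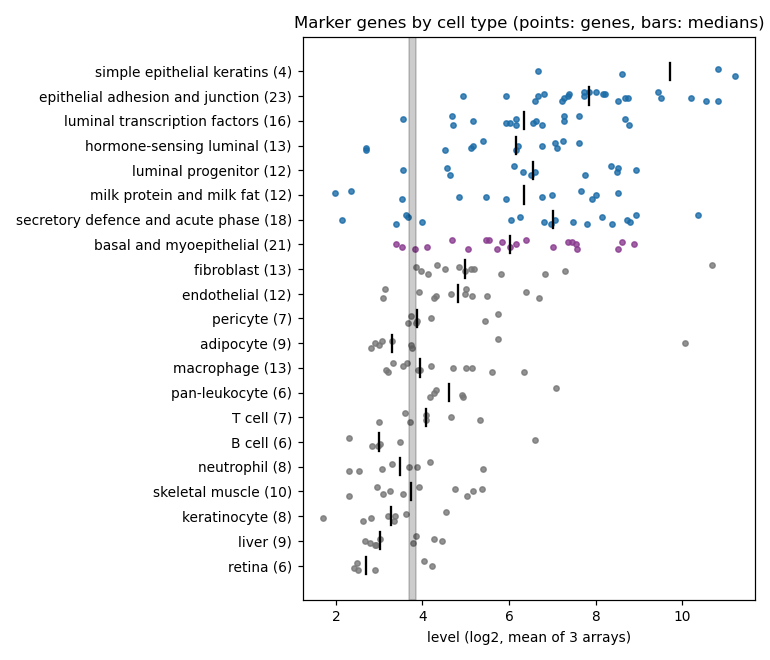
Level (horizontal axis, log2, mean of 3 arrays) of each marker gene (points) by list, with the number measured in brackets, list medians as bars and the background marks as a grey band; luminal and epithelial lists in blue, basal in purple and other cell types in grey. The blue lists and the basal list have medians near or above 6, the grey lists lie lower, and Dcn and Fabp4 stand far to the right of their lists.

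Receptor families differed in how their leading members were ordered. Of the ERBB receptors, Erbb2, the partner without a ligand, was at 8.18, 8.01 and 7.83, and Erbb3, which binds neuregulins, at 7.64, 7.83 and 7.83; their ranges touched. Egfr followed at 6.68, 6.67 and 6.55, its range separate from both neighbours. Erbb4, the receptor linked to lactation, was at 4.34, 2.67 and 3.41, above the mark in mouse 1 only. The order of the receptors was the same in all 3 mice except for Erbb2 and Erbb3, which were level in mouse 4. Among 10 ERBB ligands, Hbegf was at 7.01, 7.52 and 7.45 and Nrg1 at 7.11, 6.38 and 6.55. Epgn and Ereg, ligands of Egfr, were each highest in mouse 4 by more than 1 unit, at 5.03, 5.03 and 7.48 and at 4.62, 4.83 and 6.54. Egf itself was below the mark at 2.98, 2.72 and 2.99. Areg was not analysed here.

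Fgfr2, the receptor for ductal growth signals, was at 9.42, 9.71 and 9.50, separate from Fgfr1 at 7.79, 7.84 and 7.94. Fgfr4 and Fgfr3 were dim, at 4.25, 4.14 and 4.08 and at 4.28, 3.89 and 3.71. Of the Notch receptors and ligands, the receptor Notch1 was highest, at 6.74, 7.60 and 7.32. The ligand Jag1 was at 6.58, 6.92 and 6.80. The receptor Notch2 was at 6.26, 7.02 and 6.81, and these 3 overlapped. Notch3, a receptor of luminal progenitors and pericytes, was separate below them at 5.82, 5.95 and 5.46. Dll3 was below the mark in every mouse. In 6 of the 8 Notch genes above the mark in at least 1 mouse, mouse 2 was highest, against 32.5% of all genes.

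Among nuclear receptors, Vdr, the vitamin D receptor, was at 7.04, 6.88 and 6.26, overlapping Esr1. Nr3c1, the glucocorticoid receptor, was at 5.81, 5.67 and 6.10. Esr2, the other oestrogen receptor, was below the mark at 3.41, 3.47 and 3.48. The steroid receptor order, with Esr1 and Vdr above Nr3c1 and Nr3c2 and Esr2 at background, held in all 3 mice. Wnt4 led 19 Wnt ligands, of which 6, or 31.6%, lay above the mark on every array, against 45.9% of all genes. Wnt7b followed at 4.80, 5.26 and 5.16. Fzd6 led the Frizzled receptors at 5.96, 6.16 and 7.10.

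Transcription factor families were led by few members. Sox4 was at 8.09, 9.13 and 8.69 and Sox9 overlapped it. The next, Sox10, was separate at 5.78, 5.59 and 5.01. The lead of Sox4 rests on its brighter probe set, since its other one was at a mean of 6.39, below the 7.75 of Sox9. Klf6 and Klf5 led the Kruppel-like factors, at 9.89, 9.75 and 10.46 and at 9.29, 9.34 and 10.01, and Klf5 was separate from Klf10, the next at 6.33, 6.15 and 6.88. Of 36 Hox genes, 4 lay above the mark on every array and 0 with the stricter mark; the highest, Hoxb5, reached 4.38, 5.24 and 4.47. Of 6 factors that drive epithelial-mesenchymal transition, Twist1 alone was above the mark on every array, at 4.12, 4.13 and 4.43. Snai2, a factor of basal cells, was at 5.68, 3.79 and 5.72 and Zeb1 at 4.19, 3.60 and 3.89, so 3 members lay above the mark when mouse 2 was left out. Snai1 was below it in all mice.

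Structural and secreted families were read in the same way. Of 53 keratins, 22, or 41.5%, lay above the mark on every array, near the 45.9% of all genes, and 9 with the stricter mark. Below Krt18, Krt8, Krt14, Krt19 and Krt17 came Krt6a, a keratin of activated epithelium, at 6.27, 5.94 and 8.61, high in mouse 4. Of 24 claudins, 12, or 50.0%, lay above the mark on every array, also near the share of all genes. Cldn1, Cldn3 and Cldn7 followed Cldn4 at 8.66, 7.67 and 8.19, at 7.40, 7.74 and 8.07 and at 7.01, 7.49 and 7.30, and the range of Cldn4 lay above all of them.

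Integrin alpha chains were led by Itgav, a vitronectin receptor chain, at 8.70, 8.24 and 8.76, and Itga6, a laminin receptor chain, at 8.38, 8.30 and 8.90. Both overlapped the collagen receptor chain Itga2, and all 3 were separate from Itga3, at 6.62, 6.32 and 6.71. The place of Itgav rests on its brighter probe set, since its other one was at a mean of 2.505. Itgb1, the common beta chain, was at 7.66, 6.83 and 8.50. Lama5 and Mmp14 were likewise separate from the next members of their families. Lama5, a laminin chain of epithelial basement membranes, was at 8.19, 8.42 and 8.01. Mmp14, a membrane-bound protease, was at 8.64, 8.67 and 8.69, the narrowest of these ranges, and no other of 22 matrix metalloproteases reached 6 in any mouse. Aqp3, a water and glycerol channel, was at 7.57, 7.79 and 7.97. Aqp5, a water channel of secretory epithelia, was at 6.41, 6.90 and 6.97.

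Among S100 proteins, 9 of 15 neighbouring pairs had separate ranges. S100a6, a calcium-binding protein of growing epithelia, was at 12.25, 11.83 and 12.33. S100a10, the annexin partner, followed at 11.10, 11.25 and 11.19. S100a1 was next, at 9.16, 9.47 and 9.78. Mucins had separate ranges in 0 of 11 neighbouring pairs. Muc4, a membrane mucin that binds Erbb2, was at 7.38, 7.56 and 5.27, and Muc1 at 7.09, 6.57 and 6.18. Muc13 was at 5.88, 3.95 and 7.66 and Muc16 at 3.30, 2.46 and 6.89, both highest in mouse 4.

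**Figure D5:**
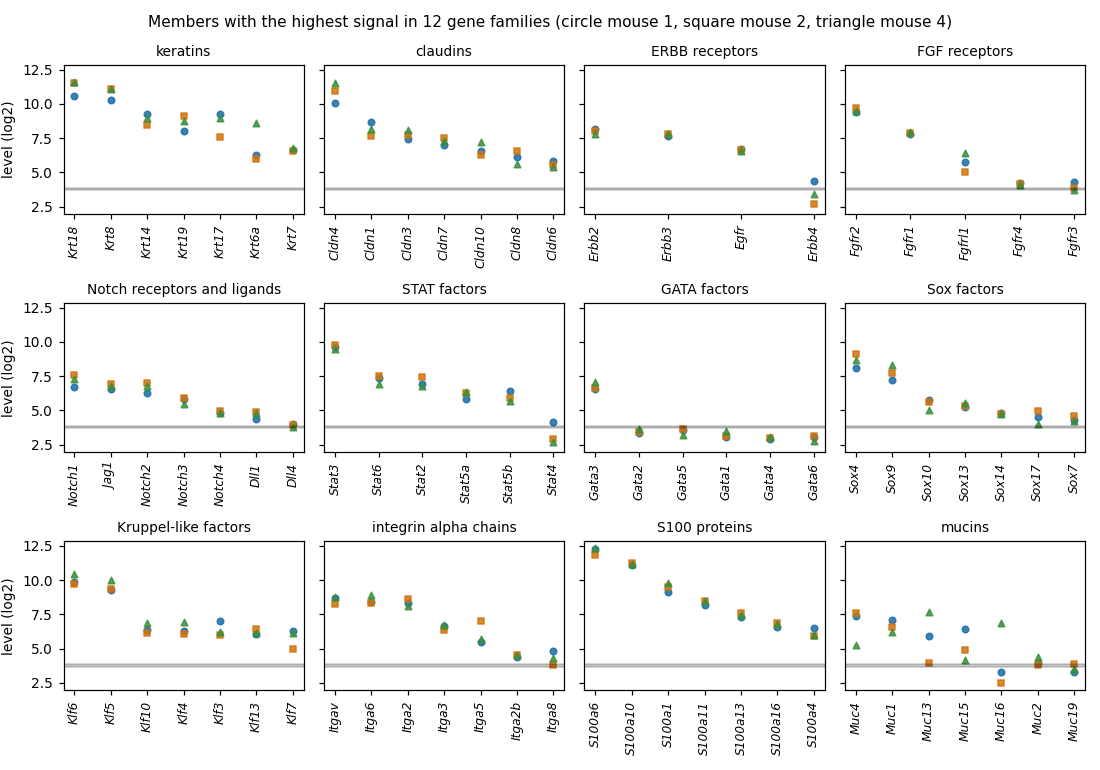
Level (vertical axis, log2) of the highest members of 12 gene families in mouse 1 (circles), mouse 2 (squares) and mouse 4 (triangles), with the background marks as a grey band. Cldn4, Fgfr2, Stat3, Gata3 and S100a6 lie apart from the next member of their families in all mice, while the mucins overlap throughout.

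Genes of cell state were read beside the lineages. Of 20 immediate early and dissociation-linked genes, 19 lay above the mark on every array, with list medians of 6.64, 6.71 and 7.42. Jun, a subunit of AP-1, was at 7.94, 10.31 and 8.60 and Fosb, its partner, at 8.15, 9.27 and 9.34. Zfp36, which destabilises cytokine transcripts, was at 9.43, 8.69 and 9.39. Mouse 4 was highest in 11 of the 20 and mouse 2 in 6, against 37.7% and 32.5% of all genes, so the share of mouse 2 was near the background. The labels do not give the time between tissue collection and lysis, and the part of cell isolation in these levels was not tested.

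Of 12 genes for MHC and antigen processing, 11 lay above the mark on every array. B2m, the light chain of class I molecules, was at 12.63, 11.99 and 12.70. The class II genes H2-Ab1 and H2-Eb1 were highest in mouse 1, at 8.69, 7.62 and 7.05 and at 6.91, 5.33 and 5.13, the mouse in which 7 of 8 macrophage genes and Ptprc were highest as well; the part of leukocytes in these levels was not tested. Of 15 interferon-stimulated genes, 13 lay above the mark, led by Bst2, an antiviral membrane tether, at 8.50, 8.46 and 8.40, and followed by Oasl2 at 6.70, 7.49 and 6.81. Mx1 was at background in all mice. Whether the virus given to the mice bears on these levels was not tested, since all 3 mice received it.

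Proliferation lists had medians of 5.12, 4.04 and 4.50 for mitosis and 4.51, 4.39 and 4.76 for DNA replication. The median over all genes was 3.93, 3.86 and 3.91. Most proliferation genes above the mark in at least 1 mouse were lowest in mouse 2. Of 19 mitotic genes, 10, or 52.6%, lay above the mark on every array, against 45.9% of all genes, and 0 with the stricter mark. Mki67, the proliferation antigen, was at 5.93, 4.62 and 5.65, and Cdc20, an activator of mitotic exit, at 5.88, 4.67 and 5.74. Of the 17 mitotic genes above the mark in at least 1 mouse, 13 were lowest in mouse 2, 4 of them by at least 1 unit. Over all genes these shares were 42.2% and 5.98%. Of 17 DNA replication genes, 10, or 58.8%, lay above the mark on every array, and 3 lay above the stricter mark. Mouse 2 was lowest in 12 of 16, again against 42.2% of all genes. Without mouse 2, the counts above the mark were 15 mitotic and 15 replication genes. Pcna, the replication clamp, was at 8.85, 7.93 and 9.36, and the helicase subunits Mcm6 and Mcm4 were at 6.28, 4.87 and 8.08 and at 5.11, 3.10 and 6.58. Of 12 genes for homologous recombination and the Fanconi pathway, 2 lay above the mark on every array, Blm at 4.68, 4.27 and 4.65 and Xrcc3 at 4.39, 4.05 and 4.03. Of 14 targets of p53, 12 lay above it, and 10 of these were highest in mouse 4, where 37.7% of all genes were. Trp53inp1, a stress-induced regulator of p53, was at 7.79, 7.46 and 8.43. Ccng1 was at 8.50, 9.48 and 9.01 and Cdkn1a, the cell cycle inhibitor p21, at 8.32, 9.71 and 8.12, the 2 exceptions, which were highest in mouse 2.

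The highest signals of the whole profile were those of small nuclear, ribosomal and mitochondrial genes. Rn7sk, the 7SK RNA that holds the elongation factor P-TEFb, led at 13.05, 13.15 and 13.01. The mitochondrial genes COX1 and ND4 followed in the same range at 12.88, 12.98 and 12.50 and at 12.41, 12.57 and 11.96, with ND1, CYTB, COX3 and ND5 also among the top 25. Rplp1, a protein of the ribosomal stalk, was at 12.65, 12.58 and 12.61. Rps6, Rpl41, Rps12, Rpl19, Rpl38, the RNase P RNA Rpph1, the elongation factor Eef1a1 and ATP synthase subunits Atp5l and Atp5md completed this group. So did the pseudogenes Rpl34-ps2 and Rpl31-ps20. Their sequences are near-identical to those of their parent genes, and which gave each signal cannot be told here. The probe set named for Rpl34 was at 5.99, 5.34 and 2.92, and that for Rpl34-ps2 at 12.04, 11.68 and 11.60. Ly6e, a membrane protein of epithelia and immune cells, was at 12.08, 11.94 and 12.14, and Clca3a2, a chloride channel regulator, at 11.48, 11.77 and 11.53. With S100a6 and B2m, these were the only genes of the top 25 with a role outside general cell machinery, apart from Vmn1r233 and Cnbd2. Vmn1r233, named for a pheromone receptor, was at 12.55, 12.64 and 12.40, while a second probe set for it was at a mean of 1.91. Cnbd2, known from testis, was at 11.91, 12.11 and 11.88, with its other probe sets at means of 3.08 and 3.56, and Odf1, the sperm tail gene, was at 10.00, 9.85 and 9.63 with its other probe set at a mean of 2.82. For these 3 genes, as for Krt18, Cdh1, Gata3 and Ighm, the brightest probe set and the others disagree. The level then depends on which stands for the gene. The same holds for other genes named here, Rpl19, Rplp1, Eef1a1, Gapdh, Itgav, Nr3c2 and Sox4 among them. Rpl19, Rplp1 and Eef1a1 had other probe sets at means of 4.23, 7.13 and 7.07.

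Of 57 cytosolic ribosomal protein genes, 45 lay above the mark on every array, with list medians of 9.33, 9.14 and 9.0. The list reached from Rplp1 down to Rpl30 at 1.44, 2.65 and 2.72. Of 32 subunits of respiratory complex I, 30 lay above the mark, from Ndufa1 at 11.30, 11.17 and 11.26 to Ndufs5 at 3.13, 3.13 and 3.47. Tfrc, the transferrin receptor and a common reference gene, was at 3.34, 3.43 and 4.20, and Gapdh at 10.22, 10.15 and 10.12.

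The spread among the mice was small for most genes. The median SD was 0.27 over all genes and 0.34 over genes above the mark on every array, and 74.2% of the latter spanned less than 1 unit. Among 13079 genes above the mark in at least 1 mouse, 218 lay at least 1 unit above both others in mouse 1, or 1.67%, and 149 below both, or 1.14%. In mouse 2, 430 lay above, or 3.29%, and 782 below, or 5.98%. In mouse 4, 305 lay above, or 2.33%, and 143 below, or 1.09%.

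The genes set farthest apart in mouse 1 were mostly small RNA genes. Mir505 was at 7.33, 2.27 and 1.91. Mir103-2 was at 7.02, 3.16 and 2.32, and Mir19a at 5.57, 2.33 and 2.51. Snord49a, a guide of ribosomal RNA methylation, was at 6.26, 3.14 and 2.53. Each was high in mouse 1 and at background in both others. Mir23a and Mir27a were low in mouse 1, at 3.47, 7.33 and 7.17 and at 4.62, 7.85 and 7.47. Genes for miRNAs and small nucleolar RNAs made up 30 of the 218 genes that were high in mouse 1, or 13.8%, against 1.64% of the 13079. Their share exceeded 1.64% in the other sets as well, at 3.36% of the genes low in mouse 1. It was 5.35% of those high and 2.05% of those low in mouse 2, and 2.62% and 6.29% in mouse 4. The array measured amplified total RNA, and the names do not tell whether the precursor, the host transcript or the mature form gave the signal. The mature 3p forms are shown to tell these miRNAs apart, from RefSeq (GRCm38.p6), 5′ to 3′, with the seed, bases 2 to 8, in capitals.
Mir505 3p: cGUCAACAcuugcugguuuucu
Mir103-2 3p: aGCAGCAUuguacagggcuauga
Mir19a 3p: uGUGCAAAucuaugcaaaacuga
Mir23a 3p: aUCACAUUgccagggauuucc
Mir27a 3p: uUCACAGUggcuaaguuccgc
No seed was shared between any of these 5 miRNAs. The other genes of this group were S100a8 and the immunoglobulin segment Igkj1 above, and H4c9, Rabl3, Mir3094 and Atxn7l1 below.

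Mouse 2 stood apart in other genes. Pip, the prolactin-induced protein of secretory epithelia, was at 2.75, 6.86 and 3.15, and Saa2 was high in the same mouse. A variable segment of the immunoglobulin kappa light chain was at 2.72, 7.87 and 2.16, and Gm26504, Ldhal6b and Tas2r143 were the other genes farthest above. Another such segment ran the other way, at 7.83, 3.51 and 9.38. The kappa segments thus set mouse 2 apart in both directions. Oas1g, an interferon-induced enzyme, was at 6.37, 2.19 and 6.26, and Lilrb4a, an inhibitory receptor of myeloid cells, at 7.79, 1.78 and 5.83. Tmem229b-ps, Mterf1b and A130010J15Rik were the other genes farthest below.

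In mouse 4, Muc16 lay farthest above both others. Hmgcs1, an early enzyme of cholesterol synthesis, was at 4.42, 3.48 and 7.44. Fgfbp1, a secreted carrier of fibroblast growth factors, was at 5.34, 3.68 and 8.29. Reg3b, Mir5098 and Olfr873 were the others. All 6 of these genes lay below 6 in mice 1 and 2. Snord61, a small nucleolar RNA, lay farthest below, at 8.0, 7.32 and 1.79. Igkv5-43, a kappa segment, followed at 10.39, 9.82 and 6.87. Fads2, a fatty acid desaturase, was at 7.51, 7.11 and 4.66. Csn1s1, Rpl34 and Dpt completed the 6 genes farthest below. The probe set named for the pseudogene Rpl34-ps2 did not follow Rpl34, at 12.04, 11.68 and 11.60.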

How the data were processed

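The authors deposited log2 expression values, with 1 value for each probe set on each array. RMA, which corrects background, quantile-normalizes and summarizes probes, and oligo are the tools in the submitters' processing notes, each in a version not given in the sources used here. Such values are compressed near background. Of 41345 probe sets, 23521 named 1 gene in the platform annotation, 1814 several and 16010 none; 23328 of the 23521 were updated through a RefSeq gene table (GRCm38.p6) and 193 kept the platform symbol. A gene was represented by its brightest probe set over the 3 wild-type arrays; 1082 genes had several, with a median gap of 1.56 between brightest and dimmest. Array data give no read depth; the number of arrays limits the precision.

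No test was made. The analysis used Python 3.11.15, numpy 2.4.6, pandas 2.3.3 and matplotlib 3.10.9. The count of genes at least 1 log2 unit above both others was checked on simulated data, for 1 array. The simulated spread of each gene was capped, and the other steps were not checked in this way. Means and SDs are over 3 arrays, and a gene stood apart in a mouse when it was at least 1 log2 unit beyond both others. Named genes are 5 luminal markers, the 25 highest means, up to 6 highest and 4 lowest members of each list, and the 6 genes farthest above and below in each mouse; others are marked as chosen after their values were seen. Lists and members were chosen with earlier results of these data known. Sequences matched for 6 of 6 genes searched and 5 of 5 miRNA genes. Alternatives were averaging all probe sets of a gene, the brightest over 6 arrays, quantile normalization again, median centring, genes with a mean of at least 5, other background marks, and leaving out each array.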

Additional observations from a re-analysis of the deposited data

How the results depend on the processing

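Re-normalization, median centring and choosing the brightest probe set over 6 arrays moved 0 of 181 values each by more than the spread between mice (counts by more than 1.5 times). Within that limit, counts per mouse still shifted. After re-normalization, 179 genes lay at least 1 unit above both others in mouse 1 and 202 below, in place of 218 and 149. The side with more genes thus changed in mouse 1. In mouse 2, 522 lay above and 648 below, in place of 430 and 782. In mouse 4, 304 lay above and 143 below, in place of 305 and 143. The background mark set the counts: 10181 genes lay above it on all arrays, 6325 with the 99th percentile. With genes of a mean of at least 5, the median difference between arrays was 0.44 in place of 0.31 and the Pearson r 0.841 in place of 0.948. That filter, which leaves fewer and brighter genes, raised the list medians of hormone-sensing genes to 6.51, progenitor genes to 7.57, milk genes to 7.40, basal genes to 6.86 and fibroblast genes to 6.02. It left 81, 249 and 189 genes at least 1 unit above both others in mice 1, 2 and 4. With all probe sets of a gene averaged, the simple keratin median was 8.50, since Krt18 was then at 8.38; Cdh1 was at 7.75, Gata3 at 5.13 and Ighm at 4.33. Leaving out 1 array at a time gave median differences of 0.26 to 0.33 and Pearson r of 0.939 to 0.966, the 0.26 and 0.966 without mouse 2. Signals near background limit all statements on dim genes, Elf5 and Trp63 among them. No paired analysis was possible because 1 group was described and no result came from a test.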

Other observations

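Most genes of cholesterol synthesis were highest in mouse 4. The list was chosen after values were seen and holds Hmgcs1, one of the 6 genes farthest above in mouse 4. Its counts are therefore descriptions, and the shares of all genes are no independent measure for them. Of 15 measured genes, 14 lay above the mark in at least 1 mouse. Mouse 4 was highest in 10 of these, against 37.7% of all genes, and by at least 1 unit in 5, against 2.33%. Beside Hmgcs1, which makes the precursor of mevalonate, these were Msmo1 at 6.04, 6.15 and 8.07, Sqle, the squalene epoxidase, at 6.29, 6.09 and 7.84, Cyp51, a demethylase of lanosterol, at 3.78, 3.08 and 5.43, and Insig1, a sterol-sensing regulator, at 3.44, 3.65 and 5.62. Fdps, which makes farnesyl diphosphate, differed from them at 5.55, 7.56 and 7.16, and Fdft1, the squalene synthase, was at 7.07, 7.91 and 8.32.

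Of the 17824 probe sets that name no gene or several, 5062, or 28.4%, lay above the mark on all 3 arrays. Among the 1082 genes with several probe sets, 72 had a gap of over 5 units between the brightest and the dimmest.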
